A study of Mus musculus with 14 samples.

Results

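The genes described here are 33 genes that mark astrocytes, the star-shaped glial cells of the brain, measured in 14 RNA-seq libraries of cultured mouse cortical neurons. They were taken by symbol from a fixed list, and all 33 were found among the 52459 gene symbols of the tables. All 33 passed the filter on low counts that left 17732 genes for testing. When the filter was applied to each line alone, 33 passed in the SA line and 32 in the SE line, where Gjb6 did not.

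Astrocytes clear glutamate and potassium from the space around synapses, carry water through aquaporin channels at their endfeet, share small molecules through gap junctions and export lipid to neurons in particles built on apolipoprotein E. In the cortex they arise from radial glia after most neurons have been born, so cultures from late embryos hold neurons with few astrocytes at first, and several astrocyte genes (Slc1a3, Fabp7, Sox9, Tnc) are already active in radial glia. Other genes on the list (Slc1a2, Sparcl1, Acsl6) are also transcribed in some neurons.

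The cultures were primary cortical neurons from E16.5 mouse embryos. They carried the wild-type Brg1 gene, the Brg1-SA allele or the Brg1-SE allele. BRG1 powers the BAF complex, which moves nucleosomes, and SA and SE stand for alanine and glutamate in place of a serine that can be phosphorylated. The SA line comprised 2 SA cultures and 2 wild-type littermate cultures, and the SE line comprised 2 SE cultures and 1 wild-type littermate culture. Libraries were made at basal or after depolarisation with 50 mM KCl for 1 h on day 6 in vitro. The protocol given for all samples adds tetrodotoxin (1 µM) and APV (100 µM), which silence firing, on day 5; whether the basal libraries received them is not given. How many embryos went into a culture is not given either, so p-values measure the spread between these libraries, which may be technical. A basal and a KCl library with the same group and number are called a culture, which the labels neither state nor contradict. The reported fit took all libraries as independent, so p-values between the lines may be too small where libraries share a culture. The 2 lines also came from different litters, and line, litter and any difference of culture or sequencing day cannot be told apart.

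Libraries held 22625916 to 23096206 estimated counts. The first principal component of log2 CPM (70.4% of the variance) placed all 6 SE-line libraries on one side, at 61.7 to 68.7, and all 8 SA-line libraries on the other, at −68.6 to −28.0. SA-line wild-type culture 1 stood apart from the other SA-line cultures in both of its libraries, which had the 2 highest values on the second component (24.4 and 44.2). Some of the results that rest on it are given below with and without it.

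The plain outcome was that most astrocyte genes were expressed at a lower level in the SE line than in the SA line, in mutant and wild-type cultures alike, while no astrocyte gene passed the test for KCl or for the BRG1 alleles. In TPM, a unit scaled to transcript length and library size, the summed level of the 33 genes was 10969 ± 1044 (SD, n = 4) in the SA line at basal and 3267 ± 129 (SD, n = 3) in the SE line, a ratio of 3.36. After KCl the sums were 10622 ± 1216 and 3364 ± 194, a ratio of 3.16. The wild-type culture of the SE line, at 3119 TPM, lay with its SE littermates (3342 and 3342 TPM), and the lowest SA-line sum at basal was 10059 TPM. In bulk RNA, fewer cells of a type and less RNA per cell cannot be told apart. By median TPM, which is set per transcript length, the most abundant of the 33 in the SA line were Apoe (1612), Mt1 (1488), Mt2 (1389.8) and Fabp7 (1389), and in the SE line Mt1 (615), Sparcl1 (473), Mt2 (443) and Apoe (439.7).

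**Figure D1:**
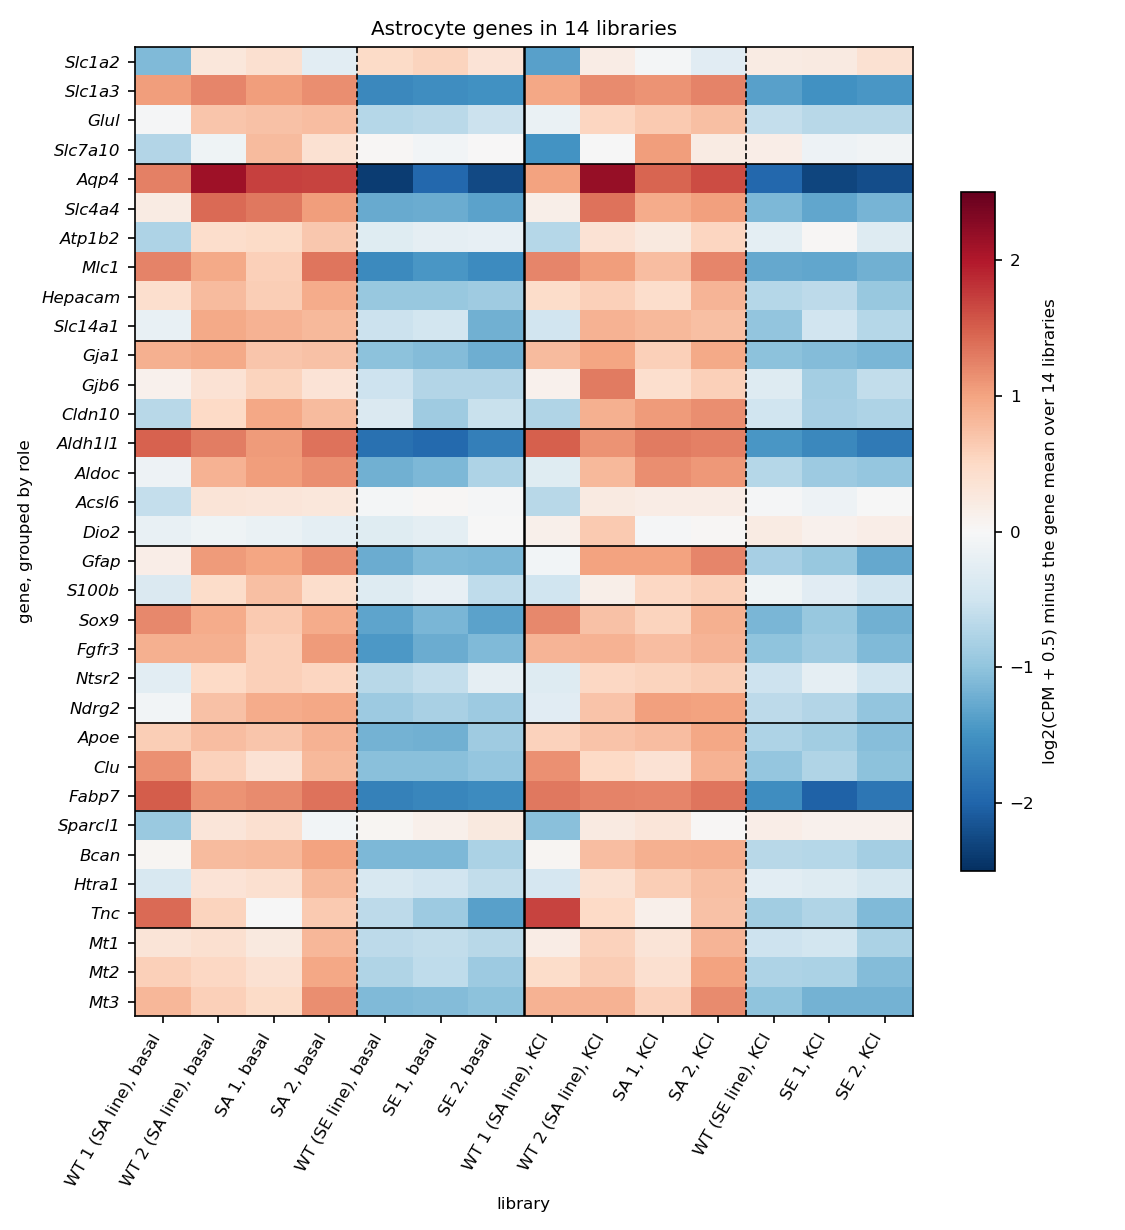
Levels of the 33 astrocyte genes in each of the 14 libraries, as log2(CPM + 0.5) minus the mean of that gene over all libraries (colour scale), with genes in rows grouped by role and libraries in columns; the solid vertical line separates basal from KCl and dashed lines separate the SA line from the SE line. Most rows are red in the 8 SA-line columns and blue in the 6 SE-line columns, whatever the genotype or treatment, and SA-line wild-type culture 1 differs from its neighbours in many rows.

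Levels of single genes below are CPM, counts scaled to library size with TMM factors, and differences are log2 values from edgeR's quasi-likelihood test with the standard error (s.e.) of the model. The threshold for a call was an adjusted p of 0.05 (Benjamini-Hochberg, over the 17732 genes). Adjusted p-values below are from that test on all 14 libraries, unless another fit or method is named beside them. At basal, 26 of the 33 genes were lower in the SE line and 0 were higher, against 25.2% of all genes tested that were lower. Their median log2 difference was −1.65, and that of all genes was 0.00394. After KCl, 26 of 33 were lower, against 25.9% of all genes, with a median of −1.58 against −0.0117. These calls overlapped in 25 genes, with S100b called at basal alone and Cldn10 after KCl alone. At basal 23 genes had every SE-line library below every SA-line library, against 27.7% of all genes, and after KCl 22 did, against 28.2%. These counts include Gjb6, which passed the filter on low counts through the SA line alone; without it 25 of 32 were lower at basal and 25 of 32 after KCl, with medians of −1.65 and −1.55, and 22 and 21 did not overlap. The reverse held for 0 genes at basal and for 1, Slc1a2, after KCl, against 27.6% of all genes.

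The lines differed widely: 45.8% of all genes were called at basal and 48.1% after KCl. The split of those calls depended on the scale, with 3663 higher and 4465 lower by edgeR and 1904 higher and 5378 lower by limma on log2(TPM + 0.5), where the median of all genes was −0.15. The 33 genes gave 26 lower and 0 higher under both. Leaving out SA-line wild-type culture 1 left 1 library per treatment in that wild-type group, so no count of calls or p-value is given for that fit. Some differences without it are given below for single genes.

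**Figure D2:**
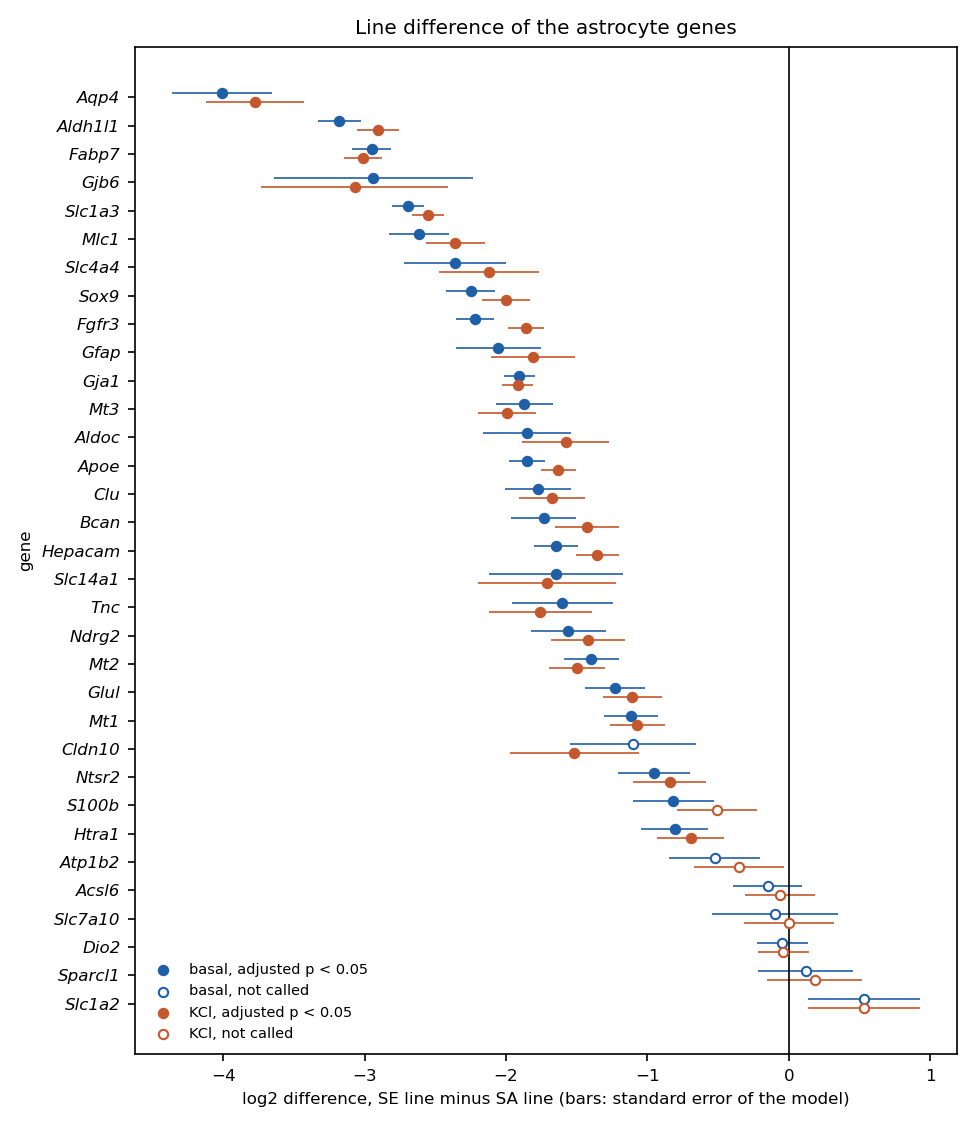
Log2 difference between the lines (SE line minus SA line, horizontal axis) for each astrocyte gene (vertical axis), at basal (blue) and after KCl (orange), with bars for the standard error of the model and open circles for genes that were not called. The differences run from −4.01 for Aqp4 to 0.53 for Slc1a2 at basal, and the basal and KCl values of a gene lie close together; the values of Gjb6 rest on counts near 0 in the SE line.

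Among 6 genes of water, ion and solute transport, 5 were lower in the SE line. Aqp4, the water channel of astrocyte endfeet, had the largest difference of all 33 genes. Its basal levels were 185 and 338 CPM in the SA-line wild types, 254 and 249.9 CPM in SA, 14.4 CPM in the SE-line wild type, and 19.4 and 15.8 CPM in SE. The lines were far apart, by a log2 difference of −4.01 ± 0.35 (s.e.), 16.1-fold lower (adjusted p = 3.24e-05). Mlc1, a membrane protein of astrocyte endfeet, lay at 218 to 362 CPM in the SA line and 47.3 to 52.1 CPM in the SE line (log2 difference −2.62). Its partner Hepacam, an adhesion molecule, lay at 82.4 to 117 CPM and 31.3 to 32.9 CPM (−1.65). The sodium-bicarbonate cotransporter Slc4a4 was lower by −2.36 and the urea transporter Slc14a1 by −1.65, the latter at only 0.683 to 4.77 CPM. None of these 5 genes overlapped between the lines at basal. Atp1b2, a beta subunit of the sodium pump, did overlap, with 183, 427, 435 and 501 CPM in the SA line and 254, 268 and 273 CPM in the SE line. Its difference of −0.52 ± 0.32 (s.e.) was not called (adjusted p = 0.209), and without wild-type culture 1 it was −0.77.

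Of the 4 genes that handle glutamate and amino acids, 2 were lower. Of the glutamate transporters, Slc1a3 (GLAST) was called and Slc1a2 (GLT-1) was not. Basal Slc1a3 levels were 743 and 842 CPM in the SA-line wild types, 737 and 804 CPM in SA, 118 CPM in the SE-line wild type, and 122 and 126 CPM in SE. The libraries of a line lay close together and the lines far apart, with a log2 difference of −2.69 ± 0.11 (s.e.), 6.46-fold lower (adjusted p = 7.65e-07). Basal Slc1a2 levels were 90.3 and 239 CPM in the SA-line wild types, 259 and 162 CPM in SA, 271 CPM in the SE-line wild type, and 287 and 246 CPM in SE. Here the lines overlapped and SA-line wild-type culture 1 was the lowest; the log2 difference of 0.53 ± 0.40 (s.e.) was not called (adjusted p = 0.302). After KCl all 3 SE-line libraries (225 to 255 CPM) lay above all 4 SA-line libraries (75.9 to 222 CPM), and the same difference of 0.53 was again not called (adjusted p = 0.296). Leaving out the KCl library of SA-line wild-type culture 2 raised it to 1.02, which was called (adjusted p = 0.0318). Glul, the glutamine synthetase that converts glutamate taken up by astrocytes, was lower by −1.23, at 304 to 531 CPM in the SA line and 189 to 214 CPM in the SE line. The amino acid exchanger Slc7a10, which carries serine and glycine, was sparse (1.27 to 4.61 CPM) and not called, with a difference of −0.10 ± 0.44 (s.e.).

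Of the gap junction genes Gja1 and Gjb6, which encode connexin 43 and connexin 30, Gja1 was lower. It stood at 136 to 161 CPM in the SA line and 35.7 to 41.0 CPM in the SE line (log2 difference −1.91). Gjb6 was close to the limit of detection: the 8 SA-line libraries held 12 to 40 estimated counts and the 6 SE-line libraries 0 to 5, so no fold is given and its call is not read as a result. The claudin Cldn10, a tight junction protein, was not called at basal (−1.10 ± 0.45 s.e., adjusted p = 0.0692) and was lower after KCl (−1.52 ± 0.46 s.e., adjusted p = 0.0209). At basal SA-line wild-type culture 1 (2.35 CPM) lay inside the SE-line range of 1.98 to 3.11 CPM, and without that culture the basal difference was −1.37.

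Among the 4 metabolic enzymes, Aldh1l1 and Aldoc were lower. Aldh1l1, a folate enzyme widely used to mark astrocytes, had basal levels of 176 and 153 CPM in the SA-line wild types, 132 and 163 CPM in SA, 16.9 CPM in the SE-line wild type, and 16.1 and 18.9 CPM in SE. The difference was −3.18 ± 0.15 (s.e.), 9.05-fold lower (adjusted p = 1.50e-06). Aldoc, the brain form of the glycolytic enzyme aldolase, was lower by −1.85, at 124 to 302 CPM against 58.5 to 78.9 CPM. Acsl6, which activates long-chain fatty acids, lay at 60.6, 116, 113 and 112 CPM in the SA line and 88.2, 93.6 and 89.4 CPM in the SE line. The SE line fell between culture 1 and the other 3 SA-line cultures. The difference was −0.15 ± 0.25 (s.e., adjusted p = 0.652), or −0.35 without culture 1. Dio2, the deiodinase that makes active thyroid hormone, had low levels that overlapped between the lines, 2.95 to 3.32 CPM and 2.83 to 3.55 CPM, with a difference of −0.04 ± 0.18 (s.e.).

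The cytoskeletal and calcium-binding markers were both lower at basal. Gfap, the intermediate filament protein of astrocytes, had levels of 514 and 956 CPM in the SA-line wild types, 906 and 1024 CPM in SA, 193 CPM in the SE-line wild type, and 214 and 211 CPM in SE. No SE-line library came near the lowest SA-line one, with a difference of −2.05 ± 0.30 (s.e., adjusted p = 5.10e-04). S100b, a calcium-binding protein, was sparse at 2.75 to 6.57 CPM and 2.19 to 3.16 CPM. The call of its basal difference of −0.82 ± 0.29 (s.e., adjusted p = 0.0414) was lost in 9 of the 14 fits that left out 1 library. Its value after KCl was −0.51 (adjusted p = 0.166), or −0.68 without SA-line wild-type culture 1.

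All 4 regulators and receptors were lower. Sox9, a transcription factor of glial fate, lay at 58.3 to 84.6 CPM in the SA line and 14.3 to 16.3 CPM in the SE line (log2 difference −2.25). Fgfr3, a receptor for fibroblast growth factors, lay at 45.0 to 62.0 CPM and 10.5 to 13.4 CPM (−2.22). Ndrg2, which is abundant in astrocytes, was lower by −1.56, and the neurotensin receptor Ntsr2 by −0.95. Ntsr2 overlapped between the lines at basal (10.6 to 19.7 CPM and 7.72 to 10.8 CPM), the lowest SA-line value being that of culture 1.

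The 3 lipid carriers were lower without any overlap. Fabp7, a fatty acid binding protein of radial glia and young astrocytes, had basal levels of 541 and 415 CPM in the SA-line wild types, 431 and 487 CPM in SA, 58.7 CPM in the SE-line wild type, and 61.4 and 63.6 CPM in SE, a difference of −2.95 ± 0.14 (s.e., adjusted p = 1.35e-06). Apoe, the main lipoprotein of the brain, lay at 819 to 971 CPM and 232 to 288 CPM (−1.85). Clu, another secreted apolipoprotein, lay at 361 to 621 CPM and 136 to 144 CPM (−1.78).

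Of the 4 secreted and matrix proteins, 3 were lower. The proteoglycan brevican (Bcan) was lower by −1.73, the matrix glycoprotein tenascin C (Tnc) by −1.60 and the secreted protease Htra1 by −0.81. Htra1 overlapped between the lines at basal (21.6 to 51.0 CPM and 18.7 to 21.7 CPM), the lowest SA-line value being that of culture 1. Without that culture the Htra1 difference was −0.97. Sparcl1 (hevin), a secreted protein that promotes synapse formation, was not called. Its basal levels were 382 and 892 CPM in the SA-line wild types, 958 and 692 CPM in SA, 753 CPM in the SE-line wild type, and 789.7 and 856 CPM in SE. All 3 SE-line values lay within the SA-line range, whose lowest value was that of culture 1, and the difference was 0.12 ± 0.34 (s.e., adjusted p = 0.797). The spans of Htra1, S100b and Slc7a10 overlap those of Fgfr2, Dip2a and Lrp3 on the opposite strand. Their reads may be mixed where exons overlap, which was not checked, since strand-specific counting is not stated. The calls of Htra1, Ntsr2, Slc14a1 and Cldn10 were each lost in some fits that left out 1 library.

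The metallothioneins bind zinc and copper, and Mt1 and Mt2 are classic targets of the zinc-sensing factor MTF-1, while Mt3 is the form most typical of brain. The 3 genes lie within one cluster on chromosome 8 (GRCm38): Mt3 at 94152607 to 94154146, Mt2 at 94172664 to 94173568 and Mt1 at 94179082 to 94180327, all on the plus strand. Their RefSeq promoter windows (GRCm38.p6, plus strand, 250 bases before to 50 after the RefSeq start) are shown because these neighbours were lower together. Capitals mark each match on either strand to TGCNCNC, a pattern looser than the core of the metal response element bound by MTF-1. A marked stretch need not be such a core, and no match overlaps another.
Mt1, chr8:94178839-94179138: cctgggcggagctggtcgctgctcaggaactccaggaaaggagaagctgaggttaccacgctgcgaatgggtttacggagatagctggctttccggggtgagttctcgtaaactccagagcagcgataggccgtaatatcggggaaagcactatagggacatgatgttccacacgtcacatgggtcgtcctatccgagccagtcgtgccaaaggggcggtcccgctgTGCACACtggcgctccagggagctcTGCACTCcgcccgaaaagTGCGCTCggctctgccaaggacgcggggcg
Mt2, chr8:94172368-94172667: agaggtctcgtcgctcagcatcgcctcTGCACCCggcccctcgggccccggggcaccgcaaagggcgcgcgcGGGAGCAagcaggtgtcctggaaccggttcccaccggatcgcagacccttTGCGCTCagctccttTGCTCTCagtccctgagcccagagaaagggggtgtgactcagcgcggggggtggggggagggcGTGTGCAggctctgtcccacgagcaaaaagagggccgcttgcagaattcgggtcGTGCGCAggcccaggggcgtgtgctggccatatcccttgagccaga
Mt3, chr8:94152357-94152656: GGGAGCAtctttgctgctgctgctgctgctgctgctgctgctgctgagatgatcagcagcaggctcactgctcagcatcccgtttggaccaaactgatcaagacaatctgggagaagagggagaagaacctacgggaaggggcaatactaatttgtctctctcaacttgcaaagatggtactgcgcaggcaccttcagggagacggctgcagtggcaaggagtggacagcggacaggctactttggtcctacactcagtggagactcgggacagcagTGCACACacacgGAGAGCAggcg
The Mt1 window holds 3 matches, all on the plus strand, the Mt2 window holds 6, with 3 on each strand, and the Mt3 window holds 3, with 1 on the plus and 2 on the minus strand. Of all 32851 promoter windows of this length, 51.0% hold at least 1 match, 7.10% at least 3 and 0.225% at least 6. Of the 33 astrocyte genes 27 matched the promoter table, and 23 of their 38 windows (60.5%) held at least 1 match. A match is a description of the letters, not a measured site.

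All 3 metallothioneins were lower in the SE line. Basal Mt3 levels were 258 and 221 CPM in the SA-line wild types, 205 and 328 CPM in SA, 67.6 CPM in the SE-line wild type, and 69.0 and 71.9 CPM in SE, a difference of −1.87 ± 0.20 (s.e., adjusted p = 9.19e-05). Basal Mt2 levels were 271 and 255, then 235 and 351, then 106, then 115 and 95.7 CPM in the same order, a difference of −1.40 ± 0.20 (s.e., adjusted p = 4.06e-04). Basal Mt1 levels were 312 and 331, then 297 and 445, then 159, then 164 and 156 CPM, a difference of −1.12 ± 0.19 (s.e., adjusted p = 0.00131). In each case SA culture 2 was the highest library and no SE-line library reached the lowest SA-line one. Mt1 and Mt2 are close paralogs, so the split of their reads rests on the authors' quantification. Of 5 other genes of the metal response that were tested, 1 was lower, against 25.2% of all genes, so this count is not read as a result. It was the zinc importer Slc39a14, lower by −0.35 (adjusted p = 0.0133). Mtf1 itself, at 25.2 to 28.1 CPM in the SA line and 19.9 to 25.6 CPM in the SE line, was not called (−0.17, adjusted p = 0.237), nor was the zinc exporter Slc30a1 (−0.37, adjusted p = 0.073). Mt4 was at 0 counts in all 14 libraries.

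A further list of 30 astrocyte genes that share no member with the 33 was also mostly lower in the SE line at basal. It had 26 lower and 1 higher and a median of −1.84, where 25.2% of all genes were lower. The lower genes included Ptprz1, a receptor phosphatase (−2.54), Slc25a18, a mitochondrial glutamate carrier (−2.42), Entpd2, an enzyme that breaks down extracellular ATP (−3.34), and Id4, an inhibitor of differentiation factors (−2.10). The exception was the transcription factor Nfib, higher by 0.89 (adjusted p = 5.89e-04); it is named after its value was seen, as the single higher gene. Its relative Nfia was not called. Of 14 genes of reactive astrocytes 12 were lower and 0 higher, among them Stat3 (−1.58), Osmr (−2.57), Cd44 (−1.73) and Serpina3n (−2.21). Steap4 of the reactive list was at 0 in at least 1 SE-line library. Whether genes of the lists beyond the 33 passed the filter on low counts in each line alone was not checked. All these lists and the 33 genes were chosen with earlier results of these data known.

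Markers of other cells also differed between the lines, and their part in the astrocyte result was not tested. Their counts at basal stand beside 25.2% of all genes lower in the SE line and 3663 of 17732 higher. Of 12 genes of radial glia and progenitors 9 were lower in the SE line and 2 higher, and their summed level ran from 886 to 2898 TPM in the SA line and from 306 to 350.1 TPM in the SE line at basal. Vim is on this list and also on the list of reactive astrocyte genes. Differences over the 12 genes ran from −4.55 to 3.13 at basal. Mki67 and Top2a, which mark dividing cells, were lower by −4.55 and −4.41. Of 10 genes of the oligodendrocyte lineage 9 were lower, with the lowest p for Pdgfra (−4.67), and their sum ran from 415 to 486 TPM and from 65.7 to 72.7 TPM. Of 10 microglial genes 8 were lower (sums of 175 to 227 TPM and 66.7 to 85.0 TPM), and of 10 meningeal genes all 10 (sums of 78.6 to 204 TPM and 13.8 to 18.5 TPM). Of 7 endothelial and mural genes tested 5 were lower, with sums of at most 42.2 TPM, and of 8 choroid plexus genes 5 were lower at basal (sums of 275 to 1315 TPM and 7.68 to 263 TPM) and 0 after KCl. Among neuronal markers, 5 of 10 glutamatergic genes were higher in the SE line and 1 lower, with Tbr1 (2.99) and Fezf2 (3.69), 2 factors of deep cortical layers, higher and Cux2 (−3.21), a factor of upper layers, lower. The glutamatergic sum was 459 to 749 TPM in the SA line and 1268 to 1289 TPM in the SE line. Of 10 GABAergic genes 8 were lower, with the lowest p for Dlx1 (−2.52). None of the 20 neuronal genes was at 0 in any library. Cldn5 and Kcnj8 of the endothelial and mural list were at 0 in at least 1 library of each line. Cdh5 of the same list, Aldh1a2 of the meningeal list and Kcnj13 of the choroid plexus list were at 0 in at least 1 SE-line library. Counts of lower genes in these lists may thus include genes that passed the filter through the SA line alone, which was not checked.

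None of the 33 genes passed the test after 1 h of KCl. The edgeR count of called genes was 0 in the SA line, 0 in the SE line and 0 for the difference in response between the lines, where 2.02%, 2.31% and 0.107% of all genes were called. At an unadjusted p under 0.05 there were 1, 1 and 0 of the 33 genes, against 8.05%, 10.5% and 2.91% of all genes. DESeq2 also called 0 in each. The median response over the 33 genes, on the log2(CPM + 0.5) scale, ranged across the 7 cultures from −0.07 in SA-line wild-type culture 1, with 25 of 33 lower, to 0.15 in the SE-line wild type, with 27 of 33 higher. Medians over all genes were −0.000652 and 0.00516 in those wild-type cultures, and shares of all genes by direction are not given. No common direction was seen over cultures of either line. SE libraries were paired by number alone, as their deviations did not correlate (−0.07). Over all 7 cultures weighted equally, a comparison added after the data were seen, the count was again 0, with 4.82% of all genes called.

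Dio2 was the one astrocyte gene that was higher after KCl in 7 of 7 cultures, as were 6.92% of all genes. Its levels after KCl were 3.98 and 5.96 CPM in the SA-line wild types (3.10 and 3.32 at basal), 3.51 and 3.66 CPM in SA (3.17 and 2.95), 4.22 CPM in the SE-line wild type (2.83), and 3.94 and 4.08 CPM in SE (2.98 and 3.55). The lowest level after KCl lay above the highest at basal in both lines; Dio2 was the 1 astrocyte gene of which this held in the SA line (2.92% of all genes) and 1 of 3 in the SE line (14.2%). The log2 response was 0.43 ± 0.16 (s.e., adjusted p = 0.420) in the SA line and 0.44 ± 0.20 (s.e., adjusted p = 0.493) in the SE line, and 0.41 ± 0.12 (s.e., adjusted p = 0.110) over all cultures, so it did not pass the test. None of the 33 genes was lower after KCl in all 7 cultures, as 6.34% of all genes were. Slc1a2, Glul and Slc14a1 were lower in 6, for which no share of all genes is given.

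**Figure D3:**
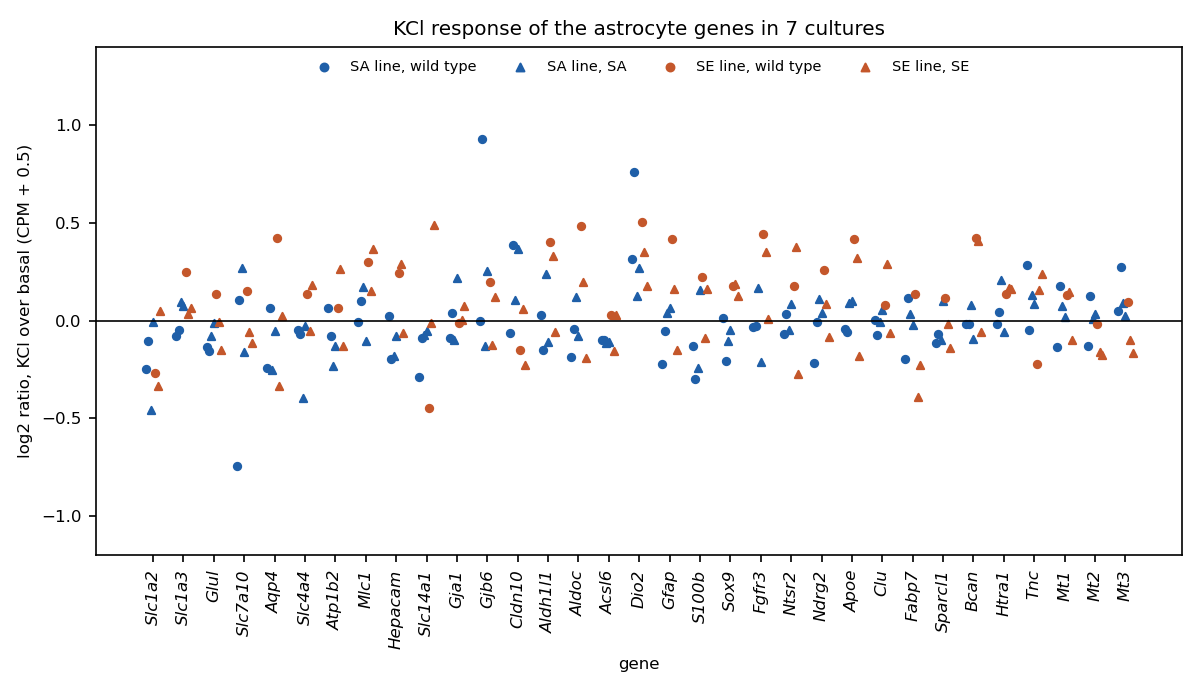
Log2 ratio of KCl over basal (CPM + 0.5, vertical axis) for each astrocyte gene (horizontal axis), 1 point per culture, blue for the SA line and orange for the SE line, circles for wild type and triangles for SA or SE. Points scatter on both sides of 0 for every gene but Dio2, whose 7 points lie above 0.

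Each BRG1 allele was compared with its littermate wild type. SA against wild type (2 against 2 cultures) gave 0 of 33 called by edgeR and 0 by DESeq2 at basal and after KCl, as 0% of all genes were called. At an unadjusted p under 0.05 there were 0 of 33 at basal (7.21% of all genes) and 3 after KCl (11.5% of all genes). These 3 were Slc7a10, Ndrg2 and Htra1, named after their values were seen, with log2 differences of 1.52, 0.72 and 0.66 and adjusted p of 0.392, 0.424 and 0.427. Without SA-line wild-type culture 1 the differences were 0.81, 0.30 and 0.31. The median over the 33 genes was 0.25 at basal and 0.21 after KCl, and without wild-type culture 1 it was 0.02 and 0.04. At basal 9 genes had both SA libraries above both wild-type ones (19.5% of all genes did) and 1 had them below (14.7%). After KCl these counts were 11 (23.8%) and 2 (19.1%).

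SE against its single wild-type culture (2 against 1) also gave 0 of 33 called by edgeR and by DESeq2, as 0% of all genes were called. At an unadjusted p under 0.05 there were 0 of 33 at basal and after KCl, against 1.05% and 1.35% of all genes. The lone wild-type libraries were assumed to vary like the other groups. Both SE libraries lay above the wild type for 16 genes at basal (30.5% of all genes) and below it for 6 (32.0%). After KCl they lay above for 3 (33.8%) and below for 21 (28.4%). The median differences were small, 0.06 at basal and −0.10 after KCl. No difference in KCl response between SA or SE and their wild types passed the test (0 called by edgeR, 0 by DESeq2, 0% of all genes called in each), and 0 of 33 had an unadjusted p under 0.05, against 0.688% of all genes for SA and 0.897% for SE.

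SA-line wild-type culture 1 differed from the other SA-line cultures in many of the astrocyte genes. In both of its libraries 19 of the 33 genes lay below the other 3 SA-line cultures, against 25.3% of all genes, and 4 lay above, against 24.9%; the other 10 were within range or mixed. Atp1b2 was at 183 CPM at basal against 427 to 501 CPM in the others, Aldoc at 124 against 247 to 302 CPM, and Cldn10 at 2.35 against 5.98 to 8.48 CPM. The genes above were Aldh1l1, Sox9, Clu and Tnc, of which Tnc was at 178 CPM against 66.4 to 105 CPM. The same culture had the highest sums of reactive astrocyte genes (2578 TPM at basal against 705 to 1524 TPM) and of radial glia and progenitor genes (2898 against 886 to 1769 TPM), while its further astrocyte genes had the lowest sum (3020.3 against 3597 to 4329.8 TPM). The reactive list and the radial glia list both hold Vim, so their sums are not separate results. The part of these genes in the values of this culture was not tested.

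**Figure D4:**
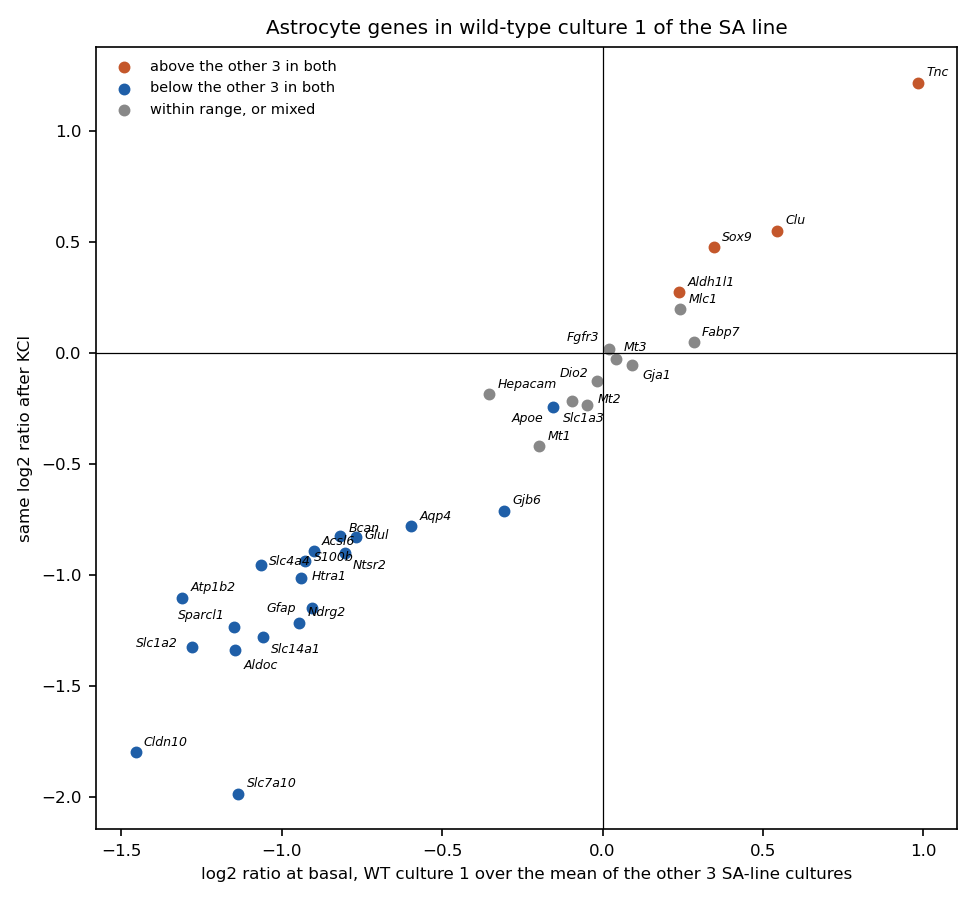
Log2 ratio of SA-line wild-type culture 1 over the mean of the other 3 SA-line cultures (CPM + 0.5), at basal (horizontal axis) and after KCl (vertical axis), 1 point per astrocyte gene. Blue points are the 19 genes below all 3 other cultures in both treatments, orange points the 4 above them and grey points the other 10; Tnc lies at the top right, and Cldn10 and Slc7a10 at the bottom left.

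Transcript estimates were read for each of the 33 genes. The leading transcript coded for protein in all 33 genes and held over 80% of the gene's estimated count on average in 24. In 5 of the 33 genes (15.2%: Acsl6, Aldoc, Apoe, Ndrg2 and Tnc) a transcript's share did not overlap between the lines, against 7.39% of all genes tested. Among genes with several transcripts it was 5 of 29 astrocyte genes (17.2%) against 9.73% of all. Acsl6, whose total level was not called, had the widest shift. Its transcript Acsl6-210 held at most 17.1% of the gene's count in the 8 SA-line libraries (median 1.68%) and 33.7% to 45.5% in the 6 SE-line libraries (median 41.4%). Acsl6-204 held 37.9% to 56.3% against 26.3% to 33.5%, Acsl6-209 held 18.8% to 36.1% against 6.36% to 17.8%, and Acsl6-207 held 9.70% to 22.1% against 0.704% to 2.59%. The SE line thus had more of Acsl6-210 and less of the other 3 in every library, wild type included. In Tnc, the share of Tnc-203 was 34.4% to 60.3% in the SA line and 16.3% to 32.1% in the SE line, and in Ndrg2 that of Ndrg2-201 was 4.0% to 7.84% and 9.88% to 18.1%. These shares were not tested, since a quantification model divides reads that several transcripts share.

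**Figure D5:**
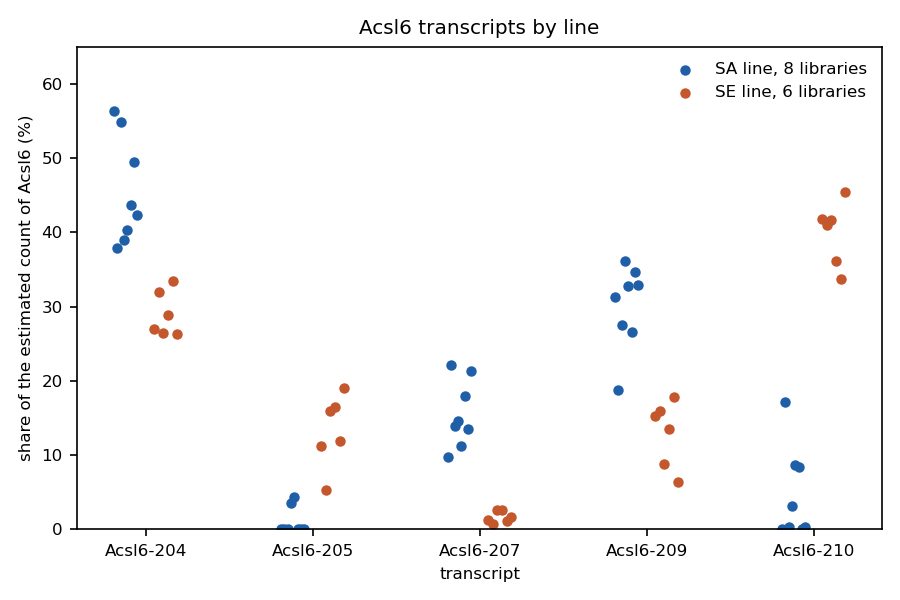
Share of the estimated count of Acsl6 (vertical axis, %) held by each of its 5 transcripts whose shares do not overlap between the lines (horizontal axis), 1 point per library, blue for the 8 SA-line and orange for the 6 SE-line libraries. Acsl6-205 and Acsl6-210 are higher in the SE line and Acsl6-204, Acsl6-207 and Acsl6-209 in the SA line.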

How the data were processed

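RNA was measured in 14 libraries of mouse cortical cultures. The authors quantified transcripts with kallisto 0.43.1 on GRCm38 (mm10), per the submitters' processing notes; further settings, and whether counting used strand, are not given in the sources used here. The deposited estimated counts per gene symbol need not be whole (65.6% of nonzero values were not). The deposited TPM values, made by the authors, are divided by transcript length and sum to 1 total per library. Libraries were grouped from the sample labels into 8 groups of line, genotype and treatment; the SE-line wild type has 1 library per treatment and other groups have 2.

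Estimated counts were rounded and fitted with edgeR 4.0.16 in R 4.3.3 (filterByExpr, TMM, glmQLFit and glmQLFTest, 8 group means, 6 residual degrees of freedom, 17732 genes). In this fit adjusted p-values are Benjamini-Hochberg values over all of these genes, called under 0.05. Comparisons were the SE line against the SA line at basal and after KCl, KCl against basal in each line and their difference, and SA or SE against littermate wild type at basal, after KCl and in response. Group means entered each contrast with equal weight. Depth was 22625916 to 23096206 counts per library. Alternatives were DESeq2 1.42.0, limma 3.58.1 on log2(TPM + 0.5), RLE scaling, no filter, each library left out, line-only fits, equal weight per culture and a replicate block. The fitting code was checked on simulated counts with changed genes added. Those counts had the same spread for all genes and no differences between cultures, so they do not test the fit at the spread seen here. Coordinates are 1-based GENCODE M21 positions.

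The members and lists were chosen with earlier results of these data known. All 33 are named, grouped by role; from each other list, up to 4 genes with the lowest p and a mean of at least 1 CPM, of which some are given here.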

Additional observations from a re-analysis of the deposited data

Results flagged for a closer look

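In the 4 SA-line libraries of a treatment, 2 SA and 2 wild type, the lowest library was far from the other 3 for 4 genes, each time wild-type culture 1. At basal its level was 304 CPM for Glul (503 to 531 CPM in the others), 10.6 CPM for Ntsr2 (18.2 to 19.7) and 60.6 CPM for Acsl6 (112 to 116). After KCl its level was 10.1 CPM for Ntsr2 (18.7 to 20.01), 56.7 CPM for Acsl6 (104 to 108) and 1.47 CPM for Slc14a1 (4.10 to 4.46). Of 66 such groups 6 were singled out by the gap to the nearest library, where chance alone does so in about 1 in 20, and the groups share their libraries.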

How the results depend on the processing

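At basal the count of astrocyte genes lower in the SE line was 26 in the reported fit and 23 to 28 when any 1 library was left out; after KCl it was 26, and 22 to 26. DESeq2, RLE scaling, limma on TPM, no filter and equal weight per culture gave 26 or 27 in both. No count is given without SA-line wild-type culture 1, since that fit left 1 library in each wild-type group of the SA line. No difference of a called gene changed sign under any of these. Calls that leaving out a single library ended were those of S100b at basal (9 of 14 libraries, being all 4 of SA, SE basal 2, both SE after KCl, and the basal wild types 2 of the SA line and 1 of the SE line; adjusted p up to 0.122), Htra1 at basal (2, SA basal 2 and SE basal 2) and after KCl (7, being both SA after KCl, all 4 of SE and SA-line wild type 2 after KCl; up to 0.0959), Ntsr2 after KCl (4, SA 2, SE 2, SA-line wild type 2 and the SE-line wild type; up to 0.0727), Cldn10 after KCl (2, either SE library) and Slc14a1 at basal (1, SE basal 2) and after KCl (2, SE 2 and the SE-line wild type). Cldn10 at basal, not called in the reported fit, was called by DESeq2 (adjusted p = 0.0343), with no filter (0.0266) and with equal weight per culture (0.0471). Leaving out the basal library of SA-line wild-type culture 1 gave it a difference of −1.36. Slc1a2 after KCl was 1.02 without the KCl library of SA-line wild type 2, which left culture 1 alone in that group. Counts of the KCl and allele comparisons stayed at 0 for every left-out library.

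Deviations of the same replicate number correlated between basal and KCl by 0.58 in SA and 0.79 in the SA-line wild type but by −0.07 in SE. Since every pair was asked to exceed 0.1, the numbers were not used as a pairing in the reported fit. That fit took the libraries as independent, which the SA-line correlations go against, so p-values of the line comparisons may be too small. With a replicate block, 0 astrocyte genes were called in any KCl or allele comparison, as without it; the block could not be fitted for the line comparisons, since each culture belongs to 1 line. SA and its wild type correlated by −0.39 at basal and −0.37 after KCl by number, and a block with crossed numbers, chosen after seeing the data, called 1 astrocyte gene, Slc7a10, for SA against wild type after KCl (log2 1.61, adjusted p = 0.032) and 0 at basal. Comparisons of SE with wild type could not be fitted without the single wild-type library. Genes at a few CPM, such as Gjb6, Dio2, Slc7a10 and Slc14a1, are limited by depth.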
